A study of Mus musculus with 4 samples.

Results

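Genes of bone formation and bone matrix were examined in polysome RNA (messenger RNA carrying several ribosomes) of mouse cells that the labels call ADSCs. The 10 listed genes were the secreted matrix proteins osteopontin (Spp1), bone sialoprotein (Ibsp), osteocalcin (Bglap), osteonectin (Sparc) and periostin (Postn), the phosphatase Alpl, and the transcription factors Runx2, Sp7, Dlx5 and Msx2. They were chosen by symbol, with the difference of Spp1 between the groups already known. Of these, 8 had a row among the 18200 genes of the table, and Bglap and Ibsp were not analysed here. The data were 2 libraries labelled Ifit1 knockdown (short hairpin RNA against Ifit1) and 2 labelled scrambled control hairpin, all of WT genotype. Batch 1 held 1 library of each label, and batch 2 the other. By its title the series concerns Ifit1, translation and muscle differentiation of mesenchymal stem cells. The titles call the libraries polysome, while the labels describe no fractionation, culture time, inducing medium or donor animal and do not say whether replicates came from separate cultures. The p-values therefore reflect the spread of these libraries alone, and that spread may be technical.

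Osteoblasts arise from mesenchymal progenitors in which Runx2 and then Sp7 (osterix) switch on the bone programme, while Dlx5 and Msx2 are homeobox factors of skeletal development with partly opposed actions on it. Alpl releases phosphate for mineral, and Spp1, Ibsp and Bglap are acidic proteins that bind calcium or mineral in the finished matrix. Sparc binds collagen and calcium, and Postn is a matricellular protein of periosteum and other collagen-rich tissue. Spp1 is also made outside bone, by macrophages among others, and binds integrins and CD44 on the surface of cells.

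The regulatory sequence of Spp1 and Runx2 is shown because these were the listed genes past the test's threshold between the groups and because Runx2 is known to bind the RUNX core in promoters of bone matrix genes. The lines give the 250 bases before the start site, 5′ to 3′ on the gene's strand, from RefSeq on GRCm38.p6, at chr5:104434861-104435110 on the plus strand for Spp1 and chr17:44814628-44814877 on the minus strand for Runx2. The RefSeq start used for Runx2 lies 170 bases inside the gene interval given below, which begins at another start, so this window overlaps the gene. Capitals mark matches to a RUNX core (TGTGGT or its reverse complement ACCACA) and to the core of the interferon-stimulated response element (TTTC, any 2 bases, TTTC, or its reverse complement).
Spp1: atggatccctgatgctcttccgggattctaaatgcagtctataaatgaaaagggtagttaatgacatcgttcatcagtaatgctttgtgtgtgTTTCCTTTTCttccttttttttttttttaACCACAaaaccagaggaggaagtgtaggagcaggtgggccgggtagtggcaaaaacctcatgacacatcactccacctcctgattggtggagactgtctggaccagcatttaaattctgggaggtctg
Runx2: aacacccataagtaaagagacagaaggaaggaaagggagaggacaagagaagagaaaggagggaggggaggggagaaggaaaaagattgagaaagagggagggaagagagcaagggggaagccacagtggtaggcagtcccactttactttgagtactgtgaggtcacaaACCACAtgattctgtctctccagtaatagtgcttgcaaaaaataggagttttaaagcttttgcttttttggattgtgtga

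Spp1 held the RUNX core as ACCACA at -128 to -123 from its start and the interferon response core as TTTCCTTTTC at -157 to -148, without overlap. Runx2 held ACCACA at -80 to -75. Searched on both strands, the RUNX core was in 14.0% of 32851 promoter windows of this length and the interferon core in 2.98%. The AP-1 site TGANTCA was in 6.75% of the windows and in neither printed one. Of the other listed genes with a window, Bglap held a RUNX core at -132 to -127, and the windows of Alpl, Ibsp, Sparc, Postn and Msx2 held no match to any of the 3 motifs. A second RefSeq start of Spp1 held none either. These matches describe letters and not binding.

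Before the bone genes, 2 properties of the libraries need stating. Ifit1, the named target, was at 13.9 and 14.8 FPKM in the knockdown-labelled libraries, against 1.93 and 1.91 FPKM in the scrambled-labelled ones (log2 difference 2.39, SE 0.04, limma adjusted p = 0.00016). This direction is opposite to the labels. Each difference below is therefore one between libraries as labelled, and no direction can be read as one of Ifit1 loss. Second, many genes paired across the labels. For 2100 of 8750 tested genes (24.0%), called crossed, scrambled 1 lay closer to knockdown 2, and scrambled 2 to knockdown 1, than replicates lay to each other in either group. By the same rule applied to libraries of the same batch, only 3 genes paired within the batch. A stricter rule gave 6082 genes closest within the label, with both replicate distances smaller than every distance between the groups. For crossed genes the distance between the groups is by definition smaller than the spread within them, so they can hardly pass the test. Whether the values of crossed genes stand in the columns of their own libraries could not be checked from the table, so their group values hold only as the columns are labelled. The implied library totals were 39400000 and 36200000 fragments labelled knockdown, and 32200000 and 39100000 labelled scrambled.

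In the knockdown-labelled libraries osteopontin was 5.72-fold higher and Runx2 3.49-fold lower, and the most abundant listed gene, Sparc, had no level that went with the label. Of 8 genes with a row, 4 reached a mean of 1 FPKM and were tested, and 4 were below it. In the fit over all genes, 1 of the 4 was higher, 1 lower and 2 did not pass. The lower one, Runx2, reached 1 FPKM only through the scrambled-labelled libraries, so it had to differ. In the same fit 68.7% of all tested genes passed, 27.4% higher and 41.2% lower in the knockdown-labelled libraries. Without overlap between the groups were 6 of the 8, with 4 higher and 2 lower, where 58.6% of all genes in the table had none, and among tested genes it was 3 of 4, beside 74.5% of all tested. The choice of genes used this contrast, so these counts and the values below describe and carry no p-value.

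Spp1 (Entrez 20750, chromosome 5, 104435111 to 104441053 on GRCm38.p6) had 16.8 and 17.3 FPKM in the knockdown-labelled libraries, against 2.98 and 2.98 FPKM in the scrambled-labelled ones. Both knockdown-labelled libraries stood far above both others, and replicates lay close together. The means were 17.0 ± 0.406 and 2.98 ± 0.00117 FPKM (SD, n = 2 each), 5.72-fold, from 1096 and 1040 fragments against 159 and 193. From counting error alone, the fragment ratio of 5.72 has a 95% interval of 5.11 to 6.42 (exact Clopper-Pearson on the split of fragments, here and below, and covering counting error only). On log2(FPKM + 1) the difference was 2.18 (SE 0.02), with 2.16 in batch 1 and 2.21 in batch 2, and 32 of the 8750 tested genes had a larger one. The SE is below the counting error of 0.0649, since the replicates differ by less than counts of this size usually do. The same holds for Runx2 and for many of the related genes below, whose SEs and p-values are those of the main fit. Over all tested genes the median SE was 0.021 and the median counting error 0.038. The mean level of Spp1 exceeded that of 83.5% of the genes in the table in the knockdown-labelled libraries and of 63.6% in the scrambled-labelled ones. In bulk RNA, fewer cells of a type and less RNA per cell cannot be told apart, and with no separate total RNA libraries the same holds for messenger amount and ribosome loading.

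Markers of macrophages, which also make osteopontin, were low in all libraries. Of 23 macrophage and osteoclast markers, 16 had a row, with summed levels of 7.79 and 7.80 FPKM in the knockdown-labelled libraries against 6.23 and 6.10 FPKM in the scrambled-labelled ones. Cd14, which stromal cells also express, made up most of it at 5.85 and 5.99 against 5.16 and 5.14 FPKM. Defining markers were near 0: the receptor Csf1r had 12 and 7 fragments against 5 and 8, and the lysozyme gene Lyz2 had 1 and 0 against 1 and 0. The protease Ctsk, of osteoclasts and fibroblasts, had 1.30 and 1.27 FPKM against 0.491 and 0.485 FPKM. All 16 stromal markers had a row, with sums of 1760 and 1770 FPKM in the knockdown-labelled libraries against 1650 and 1630 FPKM in the scrambled-labelled ones, and of 10 tested 7 rose and 3 fell, with Eng tested only through its level in the knockdown-labelled libraries. The sum was mostly the intermediate filament gene Vim, which fell to 820 and 836 FPKM against 1090 and 1080 FPKM, and the calcium-binding protein gene S100a4, which rose to 807 and 792 against 396 and 386 FPKM. The surface marker Thy1 rose 8.29-fold, to 31.0 and 30.3 against 3.71 and 3.68 FPKM. Nt5e (CD73), Alcam, Lum, Dcn and Pdgfra were all below 0.2 FPKM, of which Pdgfra had 44 and 39 fragments against 1 and 3, a ratio of 19.6 (7.36 to 73.5). Summed levels of other cell types were 1.17 and 1.17 against 2.21 and 2.14 FPKM for chondrocytes (6 of 15 markers with a row) and 7.68 and 7.74 against 8.46 and 8.55 FPKM for adipocytes (7 of 11). For endothelial cells (4 of 10) they were 4.70 and 4.47 against 1.69 and 1.63 FPKM, and for epithelial and mesothelial cells (12 of 12) 102 and 103 against 170 and 165 FPKM. Single genes made up most of these last sums, Egfl7 at 4.70 and 4.46 against 1.68 and 1.61 FPKM and the keratin gene Krt19 at 91.4 and 92.2 against 166 and 161 FPKM, while Pecam1 and Epcam were at or near 0. The keratin genes Krt8, Krt18 and Krt7 ran the other way, 9.14-fold, 6.15-fold and 3.25-fold higher in the knockdown-labelled libraries, and reached 1 FPKM only through them. Sox9 made up most of the chondrocyte sum, at 1.04 and 1.05 against 2.08 and 2.04 FPKM. The adipocyte sum held genes that ran opposite ways. Cebpa had 4.93 and 4.92 against 2.62 and 2.57 FPKM, and Fabp4 had 1.47 and 1.47 against 2.62 and 2.51 FPKM. Pparg had 0.961 and 0.998 against 3.02 and 3.15 FPKM, and reached 1 FPKM only through the scrambled-labelled libraries. The part of these cell types in the differences of bone genes was not tested.

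**Figure D1:**
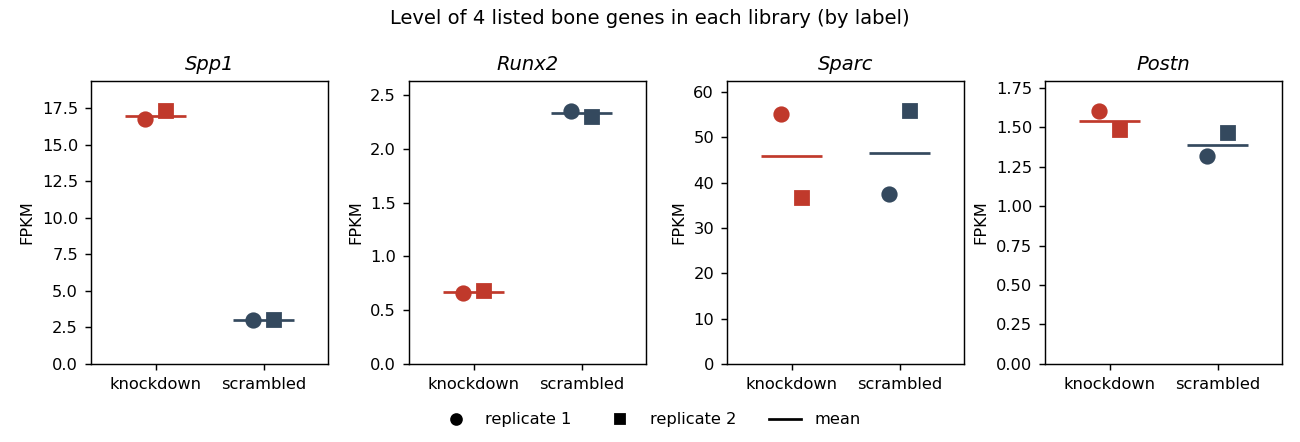
FPKM (vertical axes, from 0) of Spp1, Runx2, Sparc and Postn in the 4 libraries, knockdown-labelled on the left and scrambled-labelled on the right, with circles for replicate 1, squares for replicate 2 and lines for group means. Spp1 sits at 16.8 and 17.3 against 2.98 and 2.98, while Sparc has a library near 37 and one near 55 in each group.

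The master regulator ran the other way. Runx2 (Entrez 12393, chromosome 17, 44495987 to 44814797) had 0.662 and 0.675 FPKM in the knockdown-labelled libraries, against 2.35 and 2.30 FPKM in the scrambled-labelled ones. Neither knockdown-labelled value came near the other group. Means were 0.668 ± 0.0092 and 2.33 ± 0.0351 FPKM (SD, n = 2 each), and fragments were 155 and 145 against 450 and 535, a ratio of 0.287 (95% interval 0.251 to 0.327). The log2 difference was -0.997 (SE 0.02), with -1.01 in batch 1 and -0.98 in batch 2. Runx2 is a long transcript, 5937 bases by the length behind its FPKM, and log2 differences ran with length over all tested genes. In the tenth of genes from 5452 to 7205 bases the median difference was -0.33, against -0.01 in the tenth that holds Spp1, at 1658 bases. The part of length in either difference was not tested.

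Among the factors that act with or after Runx2, Sp7 was hardly detected. It had 3 and 2 fragments in the knockdown-labelled libraries and 9 and 9 in the scrambled-labelled ones (0.0226 and 0.0164 against 0.0829 and 0.0683 FPKM). The pooled ratio was 0.262, with a counting interval of 0.076 to 0.732. Msx2, a BMP-responsive homeobox factor, had 15 and 11 fragments against 4 and 4, a ratio of 3.06 (1.35 to 7.83), so its levels were 0.176 and 0.141 FPKM against 0.0575 and 0.0473 FPKM. Dlx5 had 2 and 0 fragments in the knockdown-labelled libraries and 2 and 0 in the scrambled-labelled ones, too few for any ratio.

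Alpl, the enzyme most used to mark osteoblast commitment, had 13 and 7 fragments in the knockdown-labelled libraries and 0 and 1 in the scrambled-labelled ones. In FPKM that was 0.0891 and 0.0523 against 0 and 0.00691. The groups did not overlap, and the ratio of 20 fragments to 1 came to 18.9 with an interval of 3.02 to 781. Even the higher group lay at a level exceeded by most genes: 29.5% of the table had a lower mean in the knockdown-labelled libraries. Of 11 markers of late osteoblasts and osteocytes, 4 had a row, and the membrane glycoprotein Pdpn, which other stromal cells share, held most of their summed level, with 795 and 739 fragments against 421 and 506. Their sums were 13.0 and 12.9 FPKM in the knockdown-labelled libraries against 9.34 and 9.35 FPKM in the scrambled-labelled ones, and the homeobox gene Irx5 had 1.69 and 1.71 against 2.20 and 2.17 FPKM. The osteocyte endopeptidase Phex had 14 and 14 fragments against 7 and 9, and Ifitm5, of bone-forming cells, 7 and 1 against 0 and 3.

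**Figure D2:**
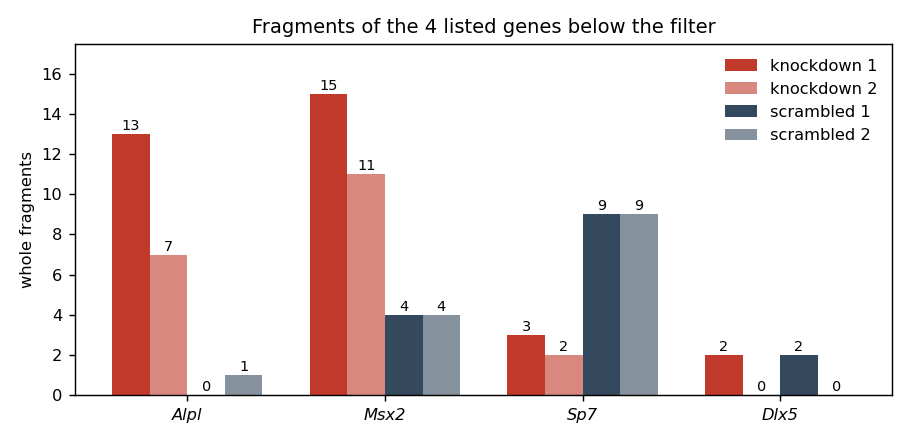
Whole fragments (vertical axis, from 0) of Alpl, Msx2, Sp7 and Dlx5 in each library, in red for the knockdown-labelled and in slate for the scrambled-labelled libraries, with replicate 2 paler. Alpl and Msx2 have more fragments in both knockdown-labelled libraries, Sp7 has 9 and 9 in the scrambled-labelled ones, and Dlx5 has at most 2 anywhere.

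Sparc (Entrez 20692, chromosome 11, 55394159 to 55420080) was the listed gene with the highest level in both groups. Its values were 55.1 and 36.7 FPKM in the knockdown-labelled libraries, against 37.5 and 55.7 FPKM in the scrambled-labelled ones. Each group thus held a high and a low library: knockdown 1 with scrambled 2, and knockdown 2 with scrambled 1. Group means were 45.9 ± 13.0 and 46.6 ± 12.8 FPKM (SD, n = 2 each), and the log2 difference was -0.02 (SE 0.32). Within batch 1 it was 0.54 and within batch 2 it was -0.59. The high pair averaged 55.4 FPKM and the low pair 37.1 FPKM, 1.49-fold apart, from 5742 and 5749 fragments in the high pair and 3511 and 3192 in the low pair. The counting error of its group difference, 0.0217 on the log2 scale, is far below that split.

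Postn (Entrez 50706, chromosome 3, 54359267 to 54391041) had 1.6 and 1.48 FPKM in the knockdown-labelled libraries, against 1.32 and 1.46 FPKM in the scrambled-labelled ones. The ranges only just parted. Means were 1.54 ± 0.0875 and 1.39 ± 0.10 FPKM (SD, n = 2 each), and the log2 difference of 0.09 (SE 0.05) was 0.16 in batch 1 and 0.01 in batch 2. The fragment ratio of 1.10 had an interval from 0.95 to 1.28. Postn passed the threshold once libraries were median-centred (0.26), quantile-normalized (0.15) or fitted with a block that pairs knockdown 1 with scrambled 2 (0.09, unchanged). This block was added after the replicate differences of these data were seen and takes up their pattern. It lowered the SE of Postn to 0.015, so a pass with it is no separate evidence. Median-centring shifts every gene's difference by the same amount. It put the median difference of all tested genes at 0.15, in place of -0.02. Quantile normalization and that block moved this median by less than 0.1.

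**Figure D3:**
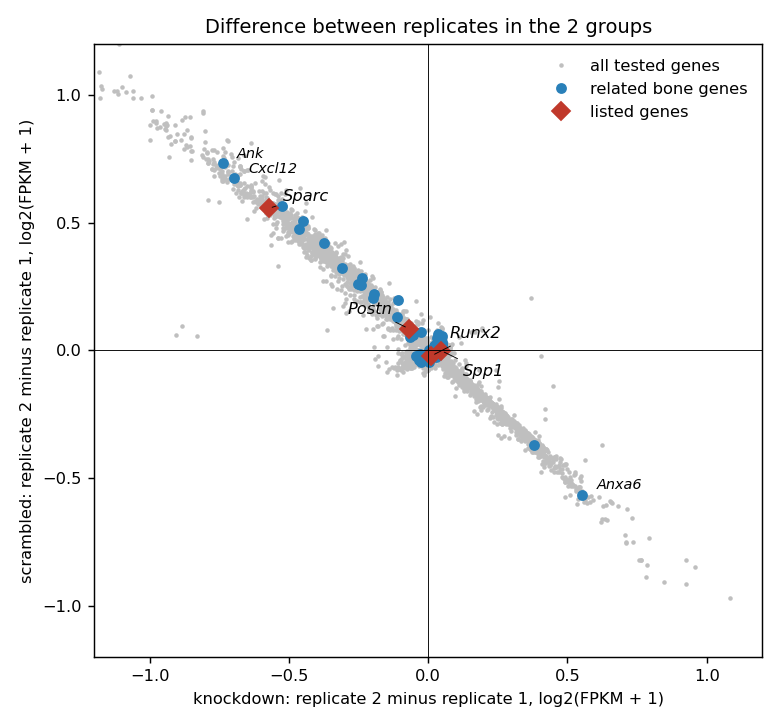
Replicate 2 minus replicate 1 on log2(FPKM + 1) in the knockdown-labelled (horizontal) and scrambled-labelled (vertical) libraries, for all tested genes in grey, related bone genes in blue and listed genes as red diamonds, with 10 genes outside the axes. Points run along the falling diagonal, where Sparc lies at -0.57 and 0.56, while Spp1 and Runx2 lie near the origin.

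FPKM is scaled to gene length, so levels of different genes can be set side by side. In the knockdown-labelled libraries the order from high to low was Sparc, Spp1, Postn, Runx2, Msx2, Alpl, Sp7 and Dlx5, and in the scrambled-labelled libraries it was Sparc, Spp1, Runx2, Postn, Sp7, Msx2, Dlx5 and Alpl. All neighbours had separate ranges except the last pair in each group, Sp7 with Dlx5 and Dlx5 with Alpl. For the pairs below 1 FPKM this separation rests on few fragments.

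The genes whose profile over the 4 libraries was most like that of Spp1, among 8422 candidates and by Euclidean distance between centred log2(FPKM + 1) values, were Prkar1b, Rtp4 and Ndn. Prkar1b, a regulatory subunit of protein kinase A, had 14.4 and 15.1 FPKM in the knockdown-labelled libraries and 2.40 and 2.38 FPKM in the scrambled-labelled ones (distance 0.0398). Rtp4, an interferon-induced receptor transporter, lay at a distance of 0.0767 and the imprinted growth suppressor Ndn at 0.0775. These distances describe 4 libraries and were not tested.

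Other genes of bone formation, matrix and mineral were taken from 7 lists and give 70 tested genes. Of these 15 rose, 38 fell and 17 did not pass (limma, Benjamini-Hochberg over 8750 genes). Among all 8750 tested genes 2401 (27.4%) rose and 3608 (41.2%) fell, and how far the related genes depart from this was not tested. Of the 17 related genes that did not pass, 15 were crossed (88.2%), where 76.6% of all genes that did not pass were. The 15 make up 21.4% of the 70, beside 24.0% of all tested genes. Foxc1, Nfatc1, Fbln1, Phospho1 and Efnb2 reached 1 FPKM only through the group where they are higher, so they had to differ and are given by their values without a test. Without these 5, 13 rose, 35 fell and 17 did not pass, of 65. With such genes left out of all tested genes as well, 2176 rose, 3345 fell and 2707 did not pass, of 8228. The median log2 difference of all tested genes was -0.02, for comparison with the medians below. That median differed with gene length. It was 0.27 for tested genes of 105 to 1111 bases and -0.42 for those of 7209 to 36093 bases. The list medians and gene differences below were not adjusted for length, and the part of length in them was not tested.

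Among 24 tested transcription factors and regulators of bone formation, of 37 listed, the test called 17 lower and 4 higher and left 3 uncalled, with a median of -0.55. Without Foxc1 and Nfatc1 it called 15 lower and 4 higher, with a median of -0.50. The vitamin D receptor gene Vdr fell to 1.62 and 1.66 FPKM in the knockdown-labelled libraries, against 5.71 and 5.80 FPKM in the scrambled-labelled ones (log2 difference -1.35, SE 0.02, limma adjusted p = 0.00016). Foxc1, a forkhead factor of skeletal development, had 0.756 and 0.769 against 2.72 and 2.69 FPKM. The Hippo effector Yap1 fell 2.53-fold in FPKM, with 1901 and 1777 fragments against 3967 and 4794 (limma adjusted p = 0.00016). Nfatc1, a calcium-regulated factor, had 0.507 and 0.516 against 1.62 and 1.62 FPKM. The other genes named in this paragraph were chosen after their values were seen. Cbfb, the partner subunit of all RUNX proteins, fell to 38.7 and 39.5 against 56.8 and 56.3 FPKM, and Runx3 fell 3.37-fold. Runx1 was crossed, at 1.79 and 1.36 against 1.37 and 1.83 FPKM, as was Atf4, which osteoblasts need for collagen synthesis, at 955 and 834 against 841 and 979 FPKM. Those that rose were Twist1, Twist2, Prrx1 and Msx1, from 1.25-fold to 1.65-fold. Twist proteins restrain Runx2 during bone development in mice.

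Matrix proteins were split. The 34 listed gave 17 tested genes, of which 8 fell, 5 rose and 4 did not pass (median -0.02). Without Fbln1, 4 rose and the median was -0.10. Mgp, an inhibitor of calcification, had 7.68 and 7.70 FPKM in the knockdown-labelled libraries, against 1.41 and 1.41 FPKM in the scrambled-labelled ones, and rose 5.46-fold (log2 difference 1.85, SE 0.01, limma adjusted p = 0.00016). Its counting error was 0.127, from 187 and 172 fragments against 28 and 34. With the SE held at that error, the limma adjusted p of Mgp was 0.0018. Both chains of type I collagen, the main protein of bone, fell. Col1a1 had 6.28 and 6.45 against 20.0 and 20.8 FPKM, and Col1a2 had 33.8 and 34.7 against 100 and 101 FPKM (log2 differences -1.54 and -1.53, adjusted p = 0.00016 each). Fbln1, an elastic-fibre glycoprotein, had 1.68 and 1.62 against 0.523 and 0.510 FPKM. Chosen after its values were seen, the small proteoglycan gene Bgn rose 1.84-fold, while Ecm1, Fstl1 and Mxra8 were crossed. Bglap3, a close copy of Bglap whose reads can be shared with it, had 5 and 1 fragments against 0 and 1.

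Genes of mineral formation gave 2 that rose, 3 that fell and 5 that did not pass, of 10 tested and 21 listed, with a median of -0.02. All 5 that did not pass were crossed. Without Phospho1, 1 rose. Phospho1, a phosphatase of matrix vesicles, had 1.67 and 1.59 FPKM in the knockdown-labelled libraries, against 0.520 and 0.495 FPKM in the scrambled-labelled ones. The secretory kinase Fam20c, which phosphorylates osteopontin and other acidic matrix proteins, rose 1.52-fold (limma adjusted p = 0.00027). Its partner Fam20a fell to 1.6 and 1.64 against 3.89 and 3.90 FPKM (adjusted p = 0.00016), and annexin A2 (Anxa2) fell to 1130 and 1140 against 1740 and 1710 FPKM. The pyrophosphate exporter gene Ank and the phosphate carriers Slc20a1 and Slc20a2, named because they were crossed, had ratios of the scrambled 2 and knockdown 1 pair over the other pair of 1.94, 1.80 and 1.33. Anxa5 and Anxa6 were crossed in the opposite sense, at 0.77 and 0.677.

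Receptors and proteases of osteopontin and periostin gave 8 tested genes of 19 listed, with a median of 0.09, and the test called 4 higher, 3 lower and 1 neither. Cd44, a hyaluronan receptor that also binds osteopontin, rose to 3.96 and 4.01 FPKM in the knockdown-labelled libraries, against 2.59 and 2.56 FPKM in the scrambled-labelled ones (log2 difference 0.48, SE 0.02, limma adjusted p = 0.0002). The integrin subunit Itga5 rose 2.02-fold, to 18.9 and 18.4 against 9.40 and 9.12 FPKM. The urokinase gene Plau fell to 1.68 and 1.73 against 3.35 and 3.4 FPKM, and the gelatinase Mmp2 to 3.54 and 3.66 against 5.53 and 5.6 FPKM. Below the filter, and chosen after their values were seen, the vitronectin receptor subunit Itgav stood at 0.902 and 0.916 against 0.612 and 0.603 FPKM, and its partner Itgb3 had 8 and 7 fragments against 18 and 22.

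Signals upstream of bone formation gave 7 tested genes of 38 listed, of which 6 fell and 1 did not pass, with a median of -0.44. The BMP target Id3 fell to 197 and 203 FPKM in the knockdown-labelled libraries, against 453 and 460 FPKM in the scrambled-labelled ones, and Id1 to 17.0 and 17.6 against 29.3 and 29.8 FPKM (limma adjusted p = 0.00016 and 0.00025). The type I receptor Acvr1 fell to 1.19 and 1.22 against 2.06 and 2.07 FPKM, and the inhibitory Smad6 to 5.17 and 5.31 against 7.44 and 7.43 FPKM. Of 4 tested factors by which stromal cells act on osteoclasts, from 10 listed, the test called 1 lower and 3 did not pass, with a median of -0.02. The called gene was the ephrin Efnb2, which had 0.75 and 0.779 against 1.39 and 1.43 FPKM, so this list holds no call once it is left out. Its receptor Ephb4 did not pass, at 5.6 and 5.33 against 4.72 and 5.02 FPKM (adjusted p = 0.058). The macrophage growth factor Csf1 and the chemokine Cxcl12 were crossed. Among the relatives of Sparc and Postn, 1 of 10 was tested, the secreted glycoprotein Fstl1, and it was crossed, at 1424 and 867 fragments against 774 and 1458.

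**Figure D4:**
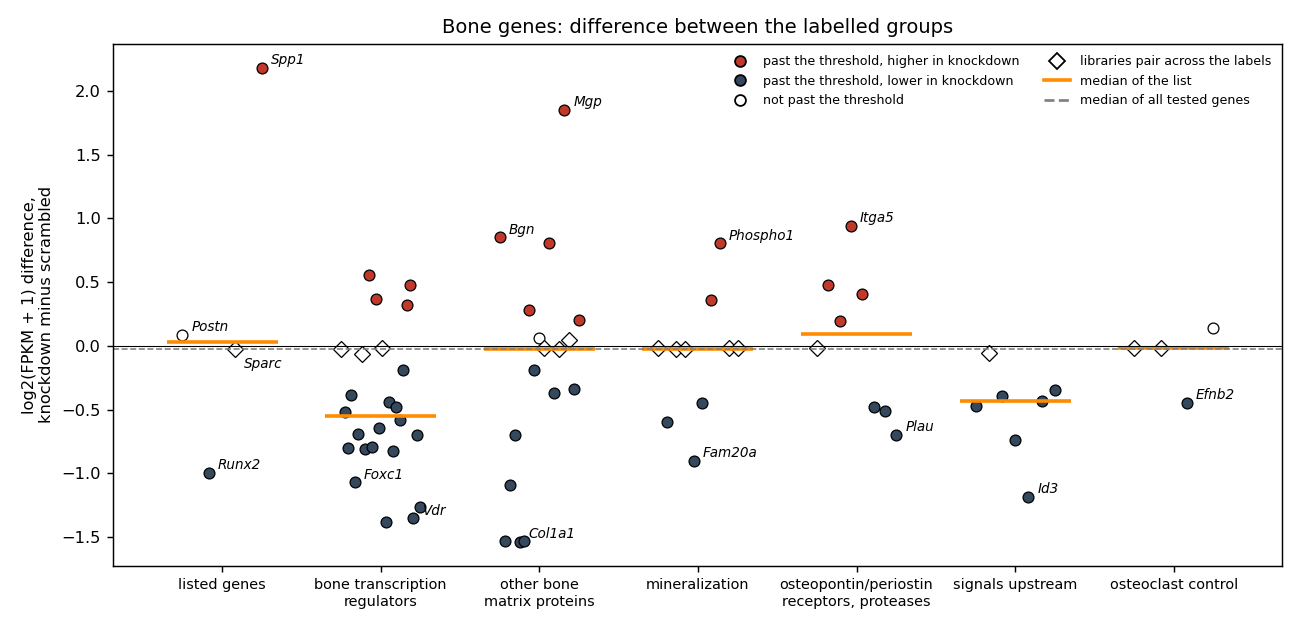
Difference on log2(FPKM + 1), knockdown-labelled minus scrambled-labelled (vertical axis), for each tested gene of the listed genes and 6 of the related lists, filled where past the threshold (Runx2, Foxc1, Nfatc1, Fbln1, Phospho1 and Efnb2 reached 1 FPKM only through their higher group), as diamonds where the libraries paired across the labels, with list medians in orange and the median of all tested genes dashed. Spp1 at 2.18 and Mgp at 1.85 stand above the rest, the regulators and upstream signals have medians of -0.55 and -0.44, and the diamonds lie near 0.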

How the data were processed

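The authors deposited FPKM (fragments scaled to gene length and library total) for 18200 genes, with 1 column per library; the labels name the table as FPKM. Per the labels' protocols, messenger RNA was captured on beads, heat-fragmented, and made into libraries. The submitters' processing notes name GRCm38, mm10 and GRCm39 with no role, and the aligner, counter, annotation and strandedness were not stated there (not given in the sources used here). All 4 value columns were used and 0 left out.

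Genes with a mean of at least 1 FPKM (8750) were tested on log2(FPKM + 1) in R 4.3.3 with limma 3.58.1 (a trended eBayes fit with no batch term, two-sided, Benjamini-Hochberg over all tested genes, threshold 0.05). Of these, 522 had a mean below 1 FPKM in one group. The log2 values understate the change of low genes. Whole fragments were recovered from the steps of the FPKM values for 15871 genes, using relative depths and whole gene lengths. The implied library total made 96.7% of the lengths of 60 genes whole (tolerance 0.01 for each gene's own length). On simulated data 1125 of 1200 genes came out exactly. PCR copies are not independent molecules, so fragment intervals cover counting error only.

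The labels pair the replicates by batch. Across 8750 genes the replicate differences of the groups correlated at r = -0.83, so the fit without a block is the main one and the block is an alternative. A gene was called crossed where both distances across (scrambled 1 to knockdown 2, scrambled 2 to knockdown 1) were smaller than both distances within groups on log2(FPKM + 1).

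The genes and lists were chosen with earlier results of these data known. Named genes are the 10 listed, the 4 tested genes of smallest p in each of 7 related lists, Ifit1 and the 3 genes most like Spp1; others are marked as chosen after their values were seen, and marker genes come from the 7 marker lists. Of 259 list symbols 211 had a row, 1 through a synonym. Promoters and coordinates are RefSeq on GRCm38.p6, with windows for 8 of the 10 listed genes. Python 3.11.15, numpy 2.4.6, pandas 2.3.3, scipy 1.17.1 and matplotlib 3.10.9 served for tables and figures.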

Additional observations from a re-analysis of the deposited data

Results flagged for a closer look

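The difference between the labelled groups had opposite signs in the 2 batches for 16 genes, Sparc and 15 related genes, which are the crossed ones among them. Opposite signs in the batches follow from the rule that defines crossed genes, so they are no further finding, and only the sizes are given as a description. The difference between batches was not tested. Values are on log2(FPKM + 1), knockdown minus scrambled. Among matrix proteins, Sparc was 0.542 in batch 1 and -0.587 in batch 2, Fstl1 was 0.522 in batch 1 and -0.569 in batch 2, Ecm1 was 0.451 in batch 1 and -0.488 in batch 2, and Mxra8 was 0.247 in batch 1 and -0.156 in batch 2. Among signals to osteoclasts, Csf1 was 0.377 in batch 1 and -0.419 in batch 2, and Cxcl12 was 0.673 in batch 1 and -0.7 in batch 2. Among regulators, Atf4 was 0.183 in batch 1 and -0.231 in batch 2, Runx1 was 0.232 in batch 1 and -0.262 in batch 2, and Hoxa10 was 0.0564 in batch 1 and -0.187 in batch 2. Of the mineral genes, Ank was 0.72 in batch 1 and -0.753 in batch 2, Slc20a1 was 0.457 in batch 1 and -0.498 in batch 2, and Slc20a2 was 0.297 in batch 1 and -0.336 in batch 2. The annexins ran the other way: Anxa5 was -0.4 in batch 1 and 0.352 in batch 2, and Anxa6 was -0.588 in batch 1 and 0.53 in batch 2. The protease gene Bmp1 was 0.239 in batch 1 and -0.275 in batch 2, and the receptor gene Bmpr1a was 0.208 in batch 1 and -0.314 in batch 2. Over all tested genes, 1300 of the 2100 crossed genes were higher in knockdown 1 and scrambled 2, as all but the annexins were here, and 800 were higher in knockdown 2 and scrambled 1.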

How the results depend on the processing

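Spp1, Runx2 and Ifit1 kept their direction and their side of the threshold under all alternatives. All settings refit the same libraries. Spp1 was chosen with its difference known, and Runx2 had to differ by the way it passed the filter. For these genes the stability is therefore no separate evidence. With no filter on low values, 8498 genes were called, of at most 18200 fitted, in place of 6009 of 8750. Of the 8498, 3819 were higher, in place of 2401. Listed genes called were 5 of the 8 with a row, in place of 2. Mineral genes gave 8 of 18 in place of 5, and relatives of Sparc and Postn 1 of 7. Upstream signals gave 19 of 33 in place of 6, and osteoclast factors 3 of 10 in place of 1. How far these counts depart from the share over all genes was not tested. Osteoclast factors gave 2 calls after median-centring, after quantile normalization and with the crossed block, in each case by adding Ephb4. Uncalled genes just below 0 changed sign after median-centring (Sparc 0.15, Fstl1 0.15, Csf1 0.15, Cxcl12 0.16), which adds the same amount to every gene's difference. The same genes changed sign after quantile normalization (Sparc 0.017, Fstl1 0.13, Csf1 0.11, Cxcl12 0.12), where the cause was not tested. Leaving out a library gave Sparc from -0.31 to 0.26, Fstl1 from -0.31 to 0.26, Csf1 from -0.23 to 0.19 and Cxcl12 from -0.36 to 0.34. With the replicate block, 5622 genes were called in place of 6009, and it changed the call of no listed gene. A crossed replicate block, added after the replicate differences were seen, called 7244, and 3 listed genes in place of 2 by adding Postn. Standard errors held at the counting error or above gave 5760, with 20 transcription regulators in place of 21 and 6 receptors and proteases in place of 7. In that setting the limma adjusted p of Fam20c was 0.019 and that of Acvr1 0.017. Depth limits Alpl, Msx2, Sp7 and Dlx5, whose summed fragments are at most 26 in either group.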

Other observations

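Several bone matrix and mineral genes below 1 FPKM, chosen after their values were seen and not tested, still differed in fragment number between the labelled groups. Smoc2, a secreted relative of Sparc, had 0 and 0 fragments in the knockdown-labelled libraries and 13 and 13 in the scrambled-labelled ones. The small proteoglycan genes ran the other way in part: Dcn (decorin) had 5 and 6 fragments against 0 and 0, and Ogn (osteoglycin) had 80 and 73 against 25 and 30, while Fmod (fibromodulin) had 8 and 7 against 20 and 19. Clec11a, a secreted factor that promotes bone formation in mice, had 24 and 23 fragments against 5 and 6. Entpd1, which breaks down extracellular ATP, had 22 and 17 against 4 and 4, and Smpd3, a sphingomyelinase needed for skeletal mineral in mice, 27 and 26 against 60 and 77. Tgfbi, the closest relative of Postn, followed the crossed pattern of Sparc, with 88 and 39 fragments in the knockdown-labelled libraries and 36 and 85 in the scrambled-labelled ones.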
